A study of Mus musculus with 8 samples.

Results

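The Eph receptors and their ephrin ligands were followed through RNA-seq libraries of NMuMG cells, a mouse line derived from normal mammary epithelium. The genes were 7 receptors (*Epha1*, *Epha2*, *Epha4*, *Ephb1*, *Ephb2*, *Ephb3* and *Ephb4*) and 3 ephrins (*Efna1*, *Efnb1* and *Efnb2*), that is 10 of the 37310 genes in the count table. They were taken by their symbols, and the family was picked because *Ephb1* has no counts in the KO-labelled libraries. The differences between genotypes are therefore given below as values without a p, and for these genes only responses to TGF-β are read as tests.

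Each of 4 groups had 2 libraries, which the methods of the study call biological replicates: control NMuMG cells and *Lnc-Nr6a1* knockout (KO) NMuMG cells, each without TGF-β or with 10 ng/ml TGF-β1 for 2 h. All were grown in medium with serum and insulin. In the knockout, a fragment between CRISPR-Cas9 cuts in the promoter and in the first exon of the long non-coding RNA *Lnc-Nr6a1* was deleted, and single sorted cells were grown into clones. Which clone or clones were sequenced is not given in the sources used here, so an effect of the deletion and a property of a clone cannot be told apart. The p-values measure the spread between these libraries only.

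Ephs form the largest family of receptor tyrosine kinases, and ephrins are bound to the membrane of the neighbouring cell, so that the pair signals at cell-cell contacts. The signal runs in both directions, forward into the cell with the receptor and in reverse into the cell with the ephrin. A-type ephrins are held by a lipid anchor and prefer EphA receptors, B-type ephrins span the membrane and prefer EphB receptors, and EphA4 binds ligands of both types. In epithelia, including the mammary gland, these contacts take part in sorting cells, setting boundaries and keeping junctions.

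A total of 4297832 to 13574397 reads per library had been counted on genes. A level of 3 counts, used here as the smallest that can be told from 0, was 0.238 to 0.660 counts scaled to the library total (CPM, with TMM factors) depending on the library. *Lnc-Nr6a1* itself, listed as Gm13507, had 3 and 14 counts in untreated control cells, 11 and 7 in the untreated KO-labelled libraries, 25 and 35 in treated control cells and 0 and 0 in the treated KO-labelled libraries. Every library of knockout cells is called KO-labelled below. The reason is that the few counts of the targeted gene in the untreated ones overlapped those of untreated control cells. Every direction between genotypes given here rests on the labels. The early TGF-β targets *Snai1* and *Smad7* rose in both genotypes, with log2 fold changes in control cells of 4.23 (SE 0.32, edgeR's adjusted p = 4.16e-04) and 1.69 (SE 0.32, edgeR's adjusted p = 0.0151). Of 8 luminal epithelial markers, *Krt8*, *Krt18*, *Krt19* and *Cdh1* were abundant in all libraries, *Cldn3* and *Cldn7* had 0 counts throughout, and *Epcam* had 2 counts in 1 library and 0 in the other 7. *Cldn4* had at most 1 count in untreated libraries, but 126 and 13 in treated control cells, and KO-labelled libraries after TGF-β had 30 and 162. In bulk RNA, fewer cells of a type and less RNA per cell cannot be told apart.

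The 300 bases around the annotated start, 250 before and 50 after it, are shown for the genes on which the results below turn. *Ephb1* is the gene without counts in the KO-labelled libraries, *Ephb4* was called lower and *Efna1* higher after TGF-β in both genotypes, and *Efnb1* was called higher after TGF-β in the KO-labelled libraries. The sequences are those of RefSeq on GRCm38.p6, a later assembly than the NCBIM37 (mm9) coordinates of the counted genes, and are written 5′ to 3′ on the gene's strand. They are *Ephb1* at chr9:102354644-102354943 (minus strand), *Ephb4* at chr5:137349859-137350158 (plus strand), *Efnb1* at chrX:99135811-99136110 (plus strand), and *Efna1* at chr3:89279596-89279895 and chr3:89280902-89281201 (minus strand), since 2 starts are listed for *Efna1*. Capitals mark CAGAC, the core of the DNA element bound by the SMAD proteins that carry TGF-β signals, or GTCTG, the same element on the other strand.
Ephb1: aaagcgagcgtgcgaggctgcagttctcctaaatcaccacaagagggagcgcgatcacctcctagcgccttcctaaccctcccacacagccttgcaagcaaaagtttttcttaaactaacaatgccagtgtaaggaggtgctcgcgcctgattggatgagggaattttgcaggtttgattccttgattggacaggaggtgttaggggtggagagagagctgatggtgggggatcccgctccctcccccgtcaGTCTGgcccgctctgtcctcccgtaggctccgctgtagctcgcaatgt
Ephb4: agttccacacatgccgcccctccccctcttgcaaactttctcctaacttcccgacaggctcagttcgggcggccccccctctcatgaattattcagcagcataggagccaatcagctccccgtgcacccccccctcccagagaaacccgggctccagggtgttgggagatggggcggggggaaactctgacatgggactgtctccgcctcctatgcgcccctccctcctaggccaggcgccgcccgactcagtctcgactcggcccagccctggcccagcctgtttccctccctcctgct
Efnb1: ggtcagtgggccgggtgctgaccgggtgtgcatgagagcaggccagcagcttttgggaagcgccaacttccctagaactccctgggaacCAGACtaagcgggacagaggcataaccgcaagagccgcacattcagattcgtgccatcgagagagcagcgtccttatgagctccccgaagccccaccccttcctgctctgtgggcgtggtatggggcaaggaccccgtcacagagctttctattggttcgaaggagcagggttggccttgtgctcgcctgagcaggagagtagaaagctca
Efna1, downstream start: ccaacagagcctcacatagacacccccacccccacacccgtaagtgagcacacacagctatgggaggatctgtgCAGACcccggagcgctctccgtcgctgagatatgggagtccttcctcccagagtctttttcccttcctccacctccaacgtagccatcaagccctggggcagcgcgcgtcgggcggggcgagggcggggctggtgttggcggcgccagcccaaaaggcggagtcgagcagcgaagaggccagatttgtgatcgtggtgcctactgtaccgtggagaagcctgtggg
Efna1, upstream start: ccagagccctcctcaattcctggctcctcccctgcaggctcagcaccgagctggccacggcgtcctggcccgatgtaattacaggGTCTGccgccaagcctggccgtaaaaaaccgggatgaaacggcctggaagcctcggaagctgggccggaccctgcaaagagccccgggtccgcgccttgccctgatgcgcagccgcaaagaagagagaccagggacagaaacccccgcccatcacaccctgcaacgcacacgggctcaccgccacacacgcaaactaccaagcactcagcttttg

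Promoters were found for all 10 genes, 11 in all. CAGAC was present on either strand in 8 of the 11, belonging to *Epha1*, *Epha4*, *Ephb1*, *Ephb3*, *Efna1*, *Efnb1* and *Efnb2*, against 49.6% of all 32817 promoters of the same length. The promoters of *Ephb4*, *Epha2* and *Ephb2* held none. The *Ephb1* match lies just after the start, whereas those of *Efna1* and *Efnb1* lie well before it. CAGGTG, an E-box bound by Snail, was present in 3 of the 11 (*Epha1*, *Ephb2*, *Efnb2*) and in 20.2% of all promoters. The AP-1 element TGANTCA was in 0 of the 11 and in 7.81% of all promoters. The GC box GGGCGG was in 8 of the 11 and in 35.6% of all. The 11 promoters held 54.7% to 72.3% G and C, above the median of 52.7% over all promoters. The part of this in the GC box matches was not tested. The motifs were searched one by one on both strands, so matches of different motifs may overlap. They describe letters in a short window and not bound sites.

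Of the 10 genes, 8 had enough counts to be tested. *Epha1*, a receptor of A-type ephrins, had 0 and 0 counts in untreated control cells, 6 and 3 after TGF-β, 0 and 1 in the untreated KO-labelled libraries and 2 and 0 in the treated ones. *Ephb2*, a receptor of B-type ephrins known from boundaries of the intestinal epithelium, had 0 and 1, 12 and 5, 0 and 1, and 5 and 8 counts in the same order. Its treated libraries lay above the untreated ones in both genotypes, at no more than 1.12 CPM. Reads of *Epha1* are uncertain because its exons share 160 bases with *Zyx* on the opposite strand, and whether the counting used the strand is not stated.

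In untreated control cells, the order of levels was set by CPM per kilobase (kb) of exon, since longer genes collect more reads. *Epha2* led with 70.0 and 76.5 CPM per kb, followed by *Ephb4* with 43.2 and 38.8 and *Epha4* with 27.6 and 35.9. These receptors were followed by the ephrins *Efna1*, at a mean of 15.1 CPM per kb, and *Efnb2*, at a mean of 9.77. *Efnb1* (mean 4.12 CPM per kb) and *Ephb3* (mean 3.86 CPM per kb) came next, and their libraries overlapped. *Ephb1* was far below, at a mean of 0.896 CPM per kb. Apart from *Efnb1* and *Ephb3*, neighbours in this order among the 8 genes did not overlap in their 2 control libraries.

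**Figure D1:**
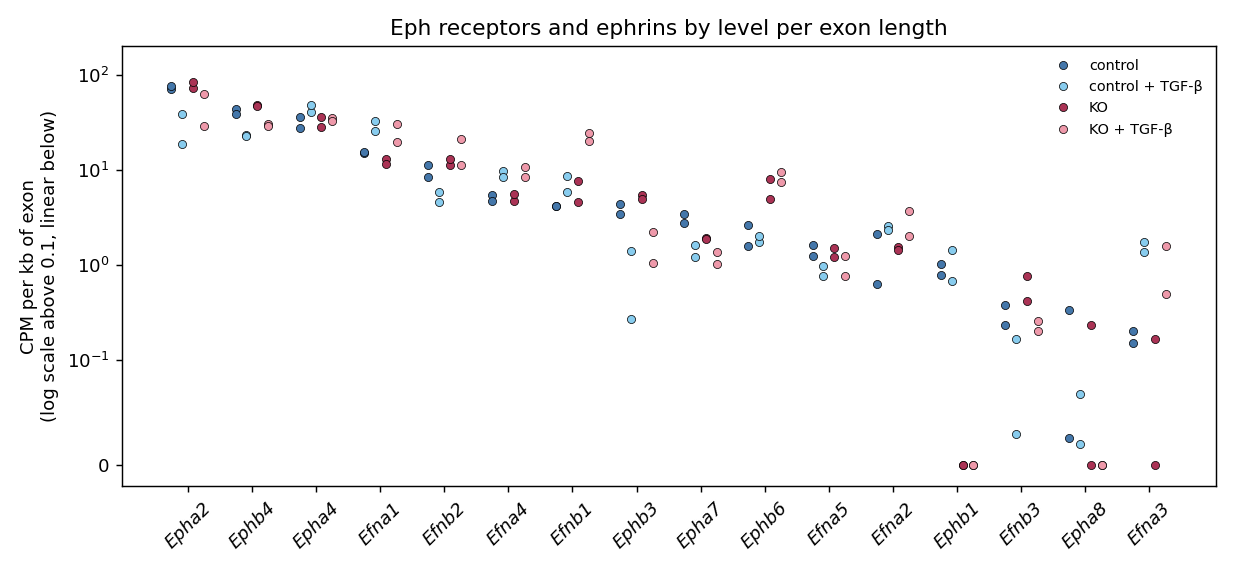
Level per kb of exon (vertical axis, CPM per kb, log scale above 0.1 and linear below) of the tested Eph receptors and ephrins in each library, 1 point per library, coloured by group and ordered by the mean in untreated control cells. *Epha2*, *Ephb4* and *Epha4* were the highest in control cells, and the points of *Ephb1* lie at 0 in the 4 KO-labelled libraries.

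*Ephb1* (ENSMUSG00000032537.8; NCBIM37 chromosome 9, 101824458 to 102257023, minus strand) encodes a receptor for B-type ephrins. Untreated control cells had 55 and 41 counts of it and treated ones 100 and 41, a mean of 5.81 ± 1.15 CPM and of 6.85 ± 3.55 CPM (SD, n = 2). It had 0 counts in each of the 4 KO-labelled libraries, where the level of 3 counts was 0.660 and 0.398 CPM untreated and 0.244 and 0.238 CPM after TGF-β. All control libraries therefore lay above all KO-labelled libraries. Against the level of 3 counts in the shallower library, the *Ephb1* level was at least 8.80-fold lower in the untreated KO-labelled libraries and at least 28.0-fold lower in the treated ones. At the control level, those libraries would have held 70.2 and 170 *Ephb1* counts in sum. This absence is what the family was chosen for and carries no test.

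Control cells had *Ephb1* counts at both times, and TGF-β did not move them detectably. Its log2 fold change was 0.24 (SE 0.48, edgeR's adjusted p = 0.793), and it became -0.44 without replicate 1 of treated control cells, the library with 100 counts. The treated replicates differed 2.16-fold and enclosed both untreated ones.

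Genes beside *Ephb1* were counted in every library. The 3 tested genes on each side, *Pccb*, *Msl2*, *Ppp2r3a*, *Cep63*, *Anapc13* and *Amotl2*, had log2 differences between untreated genotypes of -0.27 to 0.61, and 0 of the 6 were called by edgeR or by DESeq2 in either genotype comparison. At an unadjusted p below 0.05 there was 1 in each, beside 14.9% of all tested genes untreated and 31.4% treated. It was *Pccb*, which was higher in the KO-labelled libraries (log2 difference 0.61, SE 0.20, untreated). The nearest, *Cep63*, lies 231885 bases away and was at 22.5 and 27.4 CPM in untreated control cells, against 25.3 and 24.0 CPM in untreated KO-labelled libraries. Of the genes annotated on the opposite strand within *Ephb1*, *Gm17708* shares 152 exonic bases with it and had 0 counts. How reads in the shared bases were assigned is not known, since the way of counting is not given.

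The genes whose levels across the 8 libraries were most like those of *Ephb1* were *Pole3*, *Sall3*, *Wdr73*, *Fam111a* and *Mal2*, with Pearson correlations of log2 CPM of 0.995, 0.992, 0.992, 0.991 and 0.990. All points come from the same 4 groups, and the correlations follow the step between genotypes. *Fam111a* had 122 to 188 counts in the control libraries, *Mal2* had 52 to 118 and *Sall3* had 8 to 16, and all of them had 0 in the 4 KO-labelled libraries. *Pole3* and *Wdr73* were detected everywhere, *Pole3* at 44.6 to 49.0 CPM in control libraries and 33.2 to 34.9 CPM in the KO-labelled ones.

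**Figure D2:**
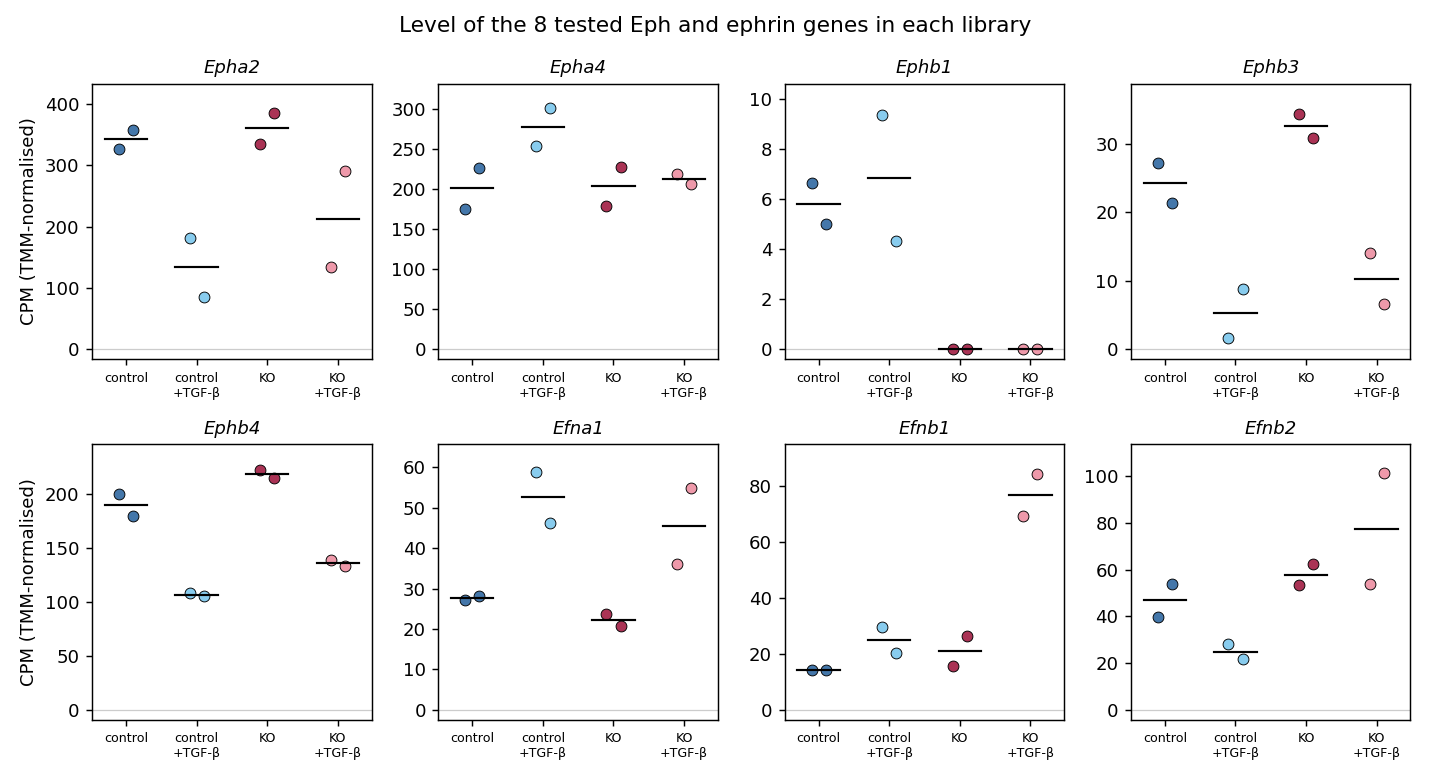
Level in CPM (vertical axis, linear, from 0) of the 8 tested genes in each of the 8 libraries, with 1 panel per gene, 1 point per library and a bar at the mean of the 2 libraries of a group. *Ephb1* was at 0 in the 4 KO-labelled libraries, *Ephb4* was lower and *Efna1* higher in the treated libraries of both genotypes, and *Efnb1* was highest in the treated KO-labelled libraries, at 69.0 and 84.2 CPM.

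TGF-β, the cytokine that starts an epithelial-mesenchymal transition in NMuMG cells, was the comparison in which these genes could be tested. A gene was called at a Benjamini-Hochberg adjusted p below 0.05 over all 13028 tested genes and an absolute log2 fold change above 0.5. In control cells 3 of the 8 tested genes were called, *Ephb3* and *Ephb4* lower and *Efna1* higher, where 9.16% of all tested genes were called (4.69% higher and 4.47% lower). Among KO-labelled libraries, where *Ephb1* had no counts, 3 of the other 7 were called, *Ephb4* lower and *Efna1* and *Efnb1* higher, where 6.82% of all were called (4.25% higher and 2.57% lower). The median log2 fold change of the 8 genes was -0.30 in control cells, and -0.83 for the 7 without *Ephb1*, against 0.016 for all tested genes. In the KO-labelled libraries the median of the 7 was 0.06, against 0 for all. In control cells, treated and untreated libraries did not overlap for 7 of the 8, which held for 53.7% of all tested genes. In the KO-labelled libraries this was so for 5 of the 7 and for 56.7% of all. Without the filter on low counts edgeR called 6 of the genes in control cells, with *Epha2*, *Efnb1* and *Efnb2* added, and 5 in the KO-labelled libraries, with *Epha2* and *Ephb3* added. Calls over all genes rose in number in these fits as well, so nothing is read from the added genes.

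**Figure D3:**
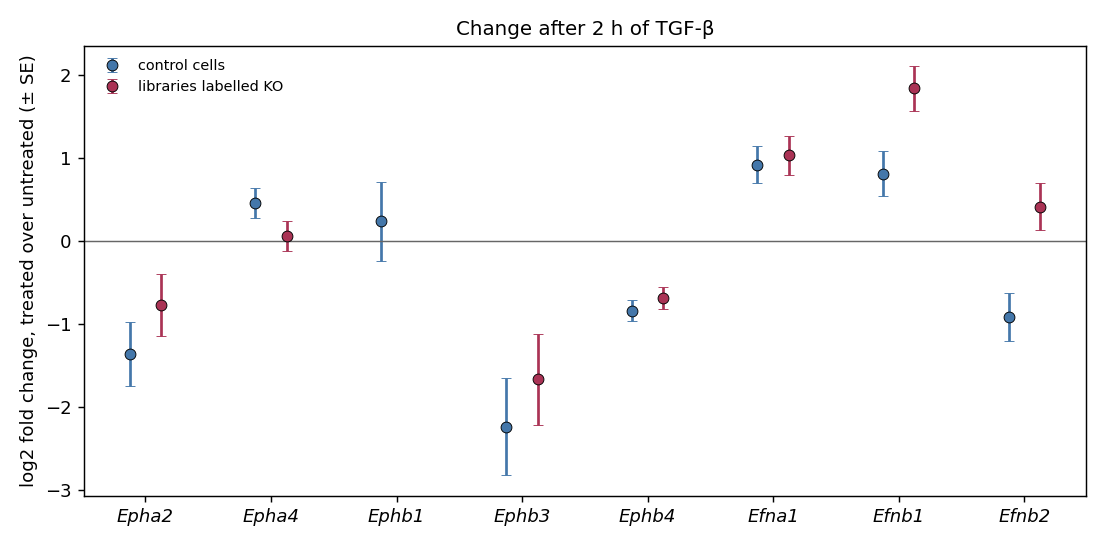
Log2 fold change after 2 h of TGF-β (vertical axis, treated over untreated, points with bars of ± 1 SE from edgeR) of the 8 tested genes in control cells and in the KO-labelled libraries, where *Ephb1* has no value. *Ephb4* and *Efna1* have nearly the same change in both genotypes, while the points of *Efnb1* and *Efnb2* lie apart by 1.03 and 1.33.

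Among the receptors, *Ephb4* (ENSMUSG00000029710.9; chromosome 5, 137791337 to 137819897, plus strand), the receptor of ephrin-B2, fell in both genotypes. It was at 200 and 180 CPM in untreated control cells and 108 and 105 CPM after TGF-β, and at 222 and 215 CPM in the untreated KO-labelled libraries and 139 and 133 CPM in the treated ones. Treated and untreated libraries lay clearly apart in each genotype. Its log2 fold change was -0.83 (SE 0.13, edgeR's adjusted p = 0.00657) in control cells, or 1.78-fold lower, and -0.68 (SE 0.13, edgeR's adjusted p = 0.0159) in the KO-labelled libraries, or 1.60-fold lower. In control cells the call was lost only without control replicate 1 (adjusted p = 0.0843 by edgeR), among 15 alternatives. Its call in KO-labelled libraries was lost without untreated replicate 1 (0.129) or 2 (0.117) or treated replicate 1 (0.0581) or 2 (0.129), all adjusted p-values of edgeR. Its exons share 33 bases with *Zan* on the opposite strand, which had 1561 counts over the 8 libraries.

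*Ephb3* (ENSMUSG00000005958.7; chromosome 16, 21204828 to 21223378, plus strand), another receptor of B-type ephrins, fell in control cells. It was at 27.2 and 21.3 CPM in untreated control cells and 1.69 and 8.77 CPM after TGF-β. The treated control libraries were both lower but 5.21-fold apart, with 18 and 83 counts. Its log2 fold change was -2.23 (SE 0.58, edgeR's adjusted p = 0.0451), or 4.70-fold lower. It was -3.84 without replicate 2 of treated control cells and -1.48 without replicate 1. The call was lost without control replicate 1 (adjusted p = 0.216) or 2 (0.122) and without untreated KO-labelled replicate 1 (0.0865) or 2 (0.0864), all by edgeR. DESeq2 (adjusted p = 0.0594) and edgeR on the 4 control libraries alone (0.0848) did not call it either. *Ephb3* was, in KO-labelled libraries, at 34.3 and 30.9 CPM untreated and 14.0 and 6.59 CPM after TGF-β, with no overlap. The log2 change of -1.66 (SE 0.55, edgeR's adjusted p = 0.111) did not pass. It passed without treated control replicate 1 (0.0115) or 2 (0.0117) and with the 4 KO-labelled libraries alone (0.0327), by edgeR.

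*Epha2* (ENSMUSG00000006445.3; chromosome 4, 140857155 to 140885299, plus strand), a receptor of ephrin-A1 that is abundant in epithelial cells, was at 327 and 358 CPM in untreated control cells and 181 and 85.9 CPM after TGF-β. It was, in KO-labelled libraries, at 334 and 386 CPM untreated and 134 and 290 CPM after TGF-β. Treated libraries were the lower ones in both genotypes, but their replicates differed 2.11-fold and 2.17-fold. The log2 fold changes of -1.36 (SE 0.38, edgeR's adjusted p = 0.0561) and -0.77 (SE 0.38, edgeR's adjusted p = 0.266) did not pass. In control cells the value was -2.01 (adjusted p = 0.0137 by edgeR) without treated control replicate 1, and it passed without treated KO-labelled replicate 1 (0.0208) or 2 (0.0200) and with thinned counts (0.0463) as well. The genes whose levels were most like those of *Epha2* over the 8 libraries were *Pitpnm2* (Pearson r = 0.987), *Foxo3* (r = 0.984) and *Myo19* (r = 0.978).

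*Epha4* (ENSMUSG00000026235.7; chromosome 1, 77363760 to 77511663, minus strand) was at 175 and 227 CPM in untreated control cells and 254 and 301 CPM after TGF-β. It was, in KO-labelled libraries, at 179 and 228 CPM untreated and 219 and 207 CPM after TGF-β. The groups were apart in control cells and overlapped in the KO-labelled libraries. The log2 fold changes were 0.47 (SE 0.18, edgeR's adjusted p = 0.133) and 0.06 (SE 0.18, edgeR's adjusted p = 0.879). After TGF-β, *Epha4* had the highest level per kb of the family in control cells, at a mean of 43.9 CPM per kb, in place of *Epha2*, at 28.6.

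Among the ephrins, *Efna1* (ENSMUSG00000027954.3; chromosome 3, 89075655 to 89085064, minus strand), a ligand of EphA2, rose in both genotypes. It was at 27.1 and 28.3 CPM in untreated control cells and 58.9 and 46.2 CPM after TGF-β, and at 23.8 and 20.7 CPM in the untreated KO-labelled libraries and 36.1 and 54.8 CPM in the treated ones. Every treated library was above every untreated one. Its log2 fold change was 0.92 (SE 0.23, edgeR's adjusted p = 0.0356) in control cells, or 1.90-fold, and 1.04 (SE 0.23, edgeR's adjusted p = 0.0295) in the KO-labelled libraries, or 2.05-fold. The direction held in all 15 alternatives in each genotype, the calls in 8 and 9 of them. In control cells the call was lost without control replicate 1 (adjusted p = 0.216) or 2 (0.152), treated control replicate 1 (0.0907) and untreated KO-labelled replicate 1 (0.0680) or 2 (0.0680) and with the 4 control libraries alone (0.0549), all by edgeR. Its call in KO-labelled libraries was lost without control replicate 1 (0.0549) or 2 (0.0540), untreated replicate 1 (0.134) or 2 (0.218) and treated replicate 2 (0.182). *Rnf4* (Pearson r = 0.992), *Map4k4* (r = 0.985) and *Prkcd* (r = 0.985) had levels most like those of *Efna1* over the 8 libraries.

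*Efnb1* (ENSMUSG00000031217.8; chromosome X, 96331469 to 96344330, plus strand), a transmembrane ligand of EphB receptors, rose in the KO-labelled libraries. It was at 15.9 and 26.3 CPM untreated and 69.0 and 84.2 CPM after TGF-β, and both treated libraries stood above every other library of the study. Its log2 fold change was 1.84 (SE 0.27, edgeR's adjusted p = 0.00466), or 3.58-fold. This call was lost only without untreated KO-labelled replicate 1 (log2 fold change 1.55, adjusted p = 0.0541 by edgeR), among 15 alternatives. In control cells *Efnb1* was at 14.3 and 14.1 CPM untreated and 29.8 and 20.3 CPM after TGF-β, with no overlap. The log2 change of 0.82 (SE 0.27, edgeR's adjusted p = 0.0905) did not pass, although it was 1.06 (0.0429) without treated control replicate 2 and passed in DESeq2 (adjusted p = 0.0481).

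*Efnb2* (ENSMUSG00000001300.8; chromosome 8, 8617434 to 8661239, minus strand), the ligand of EphB4, had opposite signs in the genotypes. It was at 39.8 and 53.9 CPM in untreated control cells and 28.0 and 21.8 CPM after TGF-β, and at 53.5 and 62.3 CPM in the untreated KO-labelled libraries and 53.8 and 101 CPM in the treated ones. Treated control libraries were the lowest of all, and only 1 treated KO-labelled library stood above the untreated ones. The log2 fold changes of -0.91 (SE 0.29, edgeR's adjusted p = 0.0859) and 0.42 (SE 0.29, edgeR's adjusted p = 0.433) did not pass. The first passed in DESeq2 (adjusted p = 0.0233) and without treated KO-labelled replicate 1 (0.0298) or 2 (0.0317), and the second was -0.08 without treated KO-labelled replicate 2.

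Whether the response to TGF-β differed between genotypes was tested for 7 genes, without *Ephb1*. By edgeR 0 of them passed at an adjusted p below 0.05, as did 0 of all 13028 genes (0%). At an unadjusted p below 0.05 there were 2 of the 7, *Efnb2* and *Efnb1*, and 1134 (8.7%) of all genes. The difference of log2 fold changes was 1.33 (SE 0.41, edgeR's adjusted p = 0.474) for *Efnb2* and 1.03 (SE 0.38, edgeR's adjusted p = 0.501) for *Efnb1*. DESeq2 also called 0 of the 7, and edgeR without the filter on low counts called *Efnb2* (difference 1.39, adjusted p = 7.49e-04). For *Ephb4* the difference was 0.15 (SE 0.18) and for *Efna1* 0.11 (SE 0.32), each smaller than its error. For *Epha2*, *Ephb3* and *Efna1* the difference changed sign when single treated libraries were left out.

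The genotypes themselves are described at each time. The untreated libraries of the genotypes did not overlap for 5 of the 8 genes, *Ephb1* among them, beside 51.9% of all tested genes, and nothing is read from this count because the family was chosen on *Ephb1*. The other 7 had log2 differences, knockout label minus control, of -0.32 for *Efna1* to 0.59 for *Efnb1*. For *Epha2* (0.07, SE 0.37), *Epha4* (0.02, SE 0.18) and *Efnb2* (0.31, SE 0.29) the libraries of the genotypes overlapped, and the signs of *Epha2* and *Epha4* turned when single libraries were left out.

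After TGF-β the libraries of the genotypes did not overlap for 5 of the 8, again with *Ephb1*, beside 55.9% of all, and nothing is read from this count either. The B-type ephrins had differences of 1.61 (SE 0.26) for *Efnb1*, 69.0 and 84.2 against 29.8 and 20.3 CPM, and 1.64 (SE 0.29) for *Efnb2*, 53.8 and 101 against 28.0 and 21.8 CPM. Among receptors the values were 0.99 (SE 0.58) for *Ephb3*, 0.67 (SE 0.38) for *Epha2*, 0.35 (SE 0.13) for *Ephb4* and -0.38 (SE 0.18) for *Epha4*. *Efna1* differed by -0.21 (SE 0.22), with overlapping libraries and another sign (0.07) without treated KO-labelled replicate 1. It lies on chromosome 3, where the median of all tested genes was -0.34 in the untreated comparison and -0.34 in the treated one. *Efnb2* lies on chromosome 8, where the medians were 0.18 and 0.17. The part of these shifts in the *Efna1* and *Efnb2* values was not tested.

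**Figure D4:**
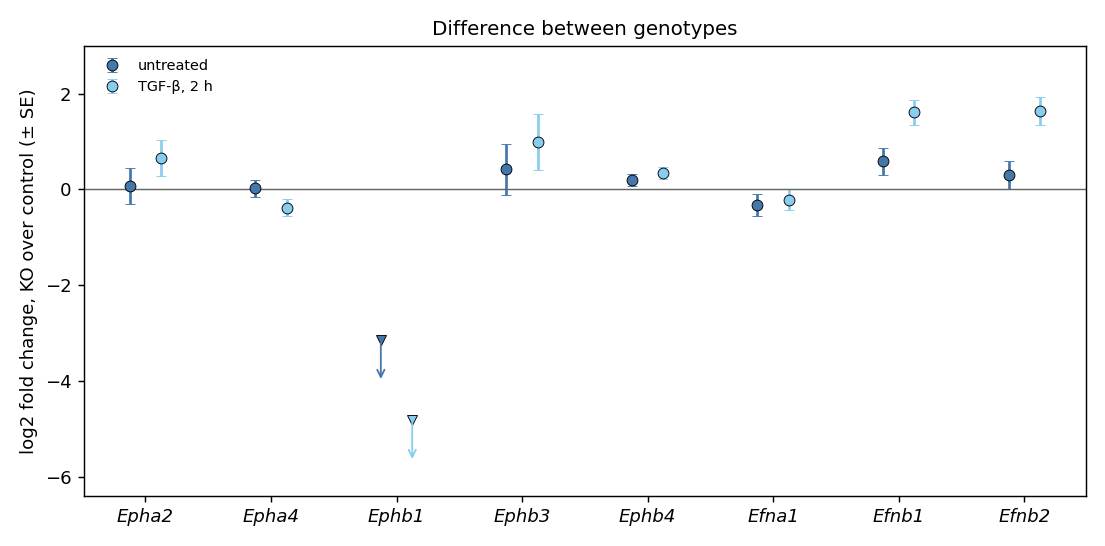
Log2 difference between genotypes (vertical axis, KO-labelled libraries over control) of the 8 tested genes, untreated and after 2 h of TGF-β, with bars of ± 1 SE from edgeR. Triangles with arrows for *Ephb1* mark bounds against the level of 3 counts, and *Efnb1* and *Efnb2* stand at 1.61 and 1.64 after TGF-β.

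Summed over the members, receptor levels were lower in the treated libraries of each genotype, while ephrin levels were less uniform. The 7 receptors summed to 736 and 791 CPM in untreated control cells and 556 and 506 CPM after TGF-β, and to 770 and 860 CPM and then 506 and 638 CPM in the KO-labelled libraries. The 3 ephrins summed to 81.2 and 96.3 CPM in untreated control cells and 117 and 88.3 CPM after TGF-β, which overlapped. They summed, in KO-labelled libraries, to 93.1 and 109 CPM untreated and 159 and 240 CPM after TGF-β, with no overlap. These sums were not tested, and those of the receptors are led by *Epha2*, *Epha4* and *Ephb4*.

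The other 12 receptors and ephrins of the mouse were followed as the rest of the family. *Epha3*, *Epha6* and *Epha10* had 0 counts in all libraries and *Epha5* had 1 count in 1 library, so these receptors were not detectable at this depth. The other 8, *Epha7*, *Epha8*, *Ephb6*, *Efna2*, *Efna3*, *Efna4*, *Efna5* and *Efnb3*, were tested. After TGF-β 2 of the 8 were called in control cells, *Epha7* lower and *Efna3* higher, beside 9.16% of all tested genes. In the KO-labelled libraries 0 of the 8 were called by edgeR, beside 6.82% of all, while 3, *Efna3* among them, had an unadjusted p below 0.05, as did 22.7% of all, and DESeq2 called 1, *Efna3*.

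*Efna3* and *Efna4*, which encode A-type ephrins, lie beside *Efna1* on chromosome 3, *Efna3* at 89117821 to 89126887 and *Efna4* at 89137312 to 89141950. *Efna3* had 3 and 4 counts in untreated control cells and 45 and 31 after TGF-β, and 0 and 3 in the untreated KO-labelled libraries and 47 and 15 in the treated ones. All treated libraries were above all untreated ones, and the gene passed the filter on low counts only through the treated ones, so its count among the calls is no support for a response. Its log2 fold change was 3.10 (SE 0.79, edgeR's adjusted p = 0.0401) in control cells, and 3.30 (SE 0.94, edgeR's adjusted p = 0.0683) in the KO-labelled libraries. The call in control cells was lost in all 6 fits that left out an untreated library or a treated control library, with edgeR's adjusted p from 0.0538 to 0.252, and with thinned counts (0.119). Its exons share 344 bases with *Gm15998* on the opposite strand, which had 12 counts over the 8 libraries. *Efna4*, at 8.55 and 7.56 CPM in untreated control cells and 15.4 and 13.4 CPM after TGF-β, did not pass (log2 fold change 0.84, SE 0.24, edgeR's adjusted p = 0.0633). *Efna4* was, in KO-labelled libraries, at 7.49 and 8.89 CPM and then 16.9 and 13.5 CPM (log2 fold change 0.88, SE 0.25, edgeR's adjusted p = 0.0666).

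*Epha7*, a receptor of A-type ephrins, was at 27.3 and 33.9 CPM in untreated control cells and 11.8 and 16.1 CPM after TGF-β, the log2 fold change being -1.14 (SE 0.24, edgeR's adjusted p = 0.0225). The call was lost without control replicate 1 (adjusted p = 0.0895) or 2 (0.142) or treated control replicate 1 (0.0501) and with the 4 control libraries alone (0.0538), by edgeR. It was, in KO-labelled libraries, at 18.9 and 18.2 CPM untreated and 13.4 and 10.0 CPM after TGF-β (log2 fold change -0.67, SE 0.25, edgeR's adjusted p = 0.146).

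*Ephb6*, a receptor without kinase activity, was the only gene of the other 8 called between genotypes. Over all tested genes 1.83% were called untreated and 15% after TGF-β, so nothing is read from 1 of 8 after TGF-β. The rule that chose the family did not use *Ephb6*, but the lists were made with earlier results of these data known. *Ephb6* was at 5.90 and 9.87 CPM in untreated control cells and 18.5 and 29.9 CPM in the untreated KO-labelled libraries, and at 6.55 and 7.61 CPM and 35.8 and 27.9 CPM after TGF-β. Every KO-labelled library was above every control library. The log2 difference was 1.63 (SE 0.32, edgeR's adjusted p = 0.0391) untreated and 2.17 (SE 0.31, edgeR's adjusted p = 0.00382) after TGF-β. The treated call held in all 16 alternatives, while the untreated one was lost without any 1 of the 4 untreated libraries, control replicate 1 (adjusted p = 0.252) or 2 (0.0948) or KO-labelled replicate 1 (0.0751) or 2 (0.298), by edgeR. *Ephb6* did not respond detectably to TGF-β, with log2 fold changes of -0.16 (SE 0.33) and 0.38 (SE 0.30).

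Of 28 partners that carry Eph and ephrin signals, such as adaptors, Src family kinases and guanine nucleotide exchange factors, 27 were tested. In control cells 1 was called after TGF-β, beside 9.16% of all tested genes. It was *Grb7*, an adaptor that binds Eph receptors. *Grb7* was at 31.9 and 25.0 CPM in untreated control cells and 5.24 and 6.77 CPM after TGF-β (log2 fold change -2.25, SE 0.42, edgeR's adjusted p = 0.0145). It fell in the KO-labelled libraries as well, from 23.8 and 20.6 CPM to 7.82 and 2.54 CPM (log2 fold change -2.09, SE 0.43, edgeR's adjusted p = 0.0210). The calls were lost without control replicate 1 (adjusted p = 0.114) in control cells and without untreated replicate 1 (0.125) or 2 (0.106) in the KO-labelled libraries, by edgeR.

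After TGF-β 3 of the 27 partners were called in the KO-labelled libraries, beside 6.82% of all tested genes, with 1 of the 3 not reported here. *Grb7* and *Dvl2* were called lower. *Dvl2*, which encodes a Dishevelled protein that binds ephrin-B tails, was at 52.4 and 38.1 CPM untreated and 20.8 and 23.7 CPM after TGF-β (log2 fold change -1.02, SE 0.24, edgeR's adjusted p = 0.0343). The call was lost without any 1 of the 4 libraries compared, with edgeR's adjusted p of 0.0845 to 0.236. In control cells *Dvl2* was at 41.6 and 30.2 CPM untreated and 24.2 and 18.7 CPM after TGF-β, with no overlap. That change did not pass (log2 fold change -0.74, SE 0.24, edgeR's adjusted p = 0.0815).

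Between untreated genotypes 0 of the 27 partners were called by edgeR or by DESeq2, beside 1.83% of all tested genes (1.03% higher and 0.798% lower). An unadjusted p below 0.05 by edgeR was held by 4 of the 27 and by 14.9% of all. *Fyn* is among the 4 but passed the filter on low counts only through the control libraries, so its place there is no support. After TGF-β 5 of the 27 were called, *Vav2* and *Ngef* higher and *Chn1*, *Chn2* and *Fyn* lower in the KO-labelled libraries, a share near the 15% of all tested genes (8.47% higher and 6.57% lower). These names were chosen after their values were seen, so nothing is read from their calls. *Fyn*, a Src family kinase that acts downstream of EphA4 and ephrin-B, had 10 and 6 counts in untreated control cells, 28 and 24 after TGF-β and 0 in the 4 KO-labelled libraries. It passed the filter on low counts only through the control libraries, so its call is no support and its p is left out. Against the level of 3 counts the *Fyn* level after TGF-β was at least 10.6-fold lower in the KO-labelled libraries, and at least 1.47-fold lower in untreated cells. *Chn1*, which encodes the Rac-inactivating protein α-chimaerin that binds EphA4, was at 12.0 and 13.7 CPM in treated control cells and 3.34 and 1.19 CPM in the treated KO-labelled libraries (log2 difference -2.50, SE 0.48, edgeR's adjusted p = 0.0109). Its call was lost without treated KO-labelled replicate 2 (0.0629) and with the 4 treated libraries alone (0.0513). The log2 differences were -0.63 (SE 0.14) for *Chn2*, 0.59 (SE 0.15) for *Vav2* and 1.17 (SE 0.29) for *Ngef*, with edgeR's adjusted p of 0.0177, 0.0278 and 0.0271. These 3 calls were each lost without treated KO-labelled replicate 1 or 2, with edgeR's adjusted p of 0.0889 and 0.0963 for *Chn2*, 0.113 and 0.0904 for *Vav2* and 0.0680 and 0.128 for *Ngef*. *Vav2* and *Ngef* were not called without treated control replicate 2 either (0.101 and 0.0749), and *Vav2* was not called without any 1 of the untreated libraries, with adjusted p of 0.0538 to 0.0564. With the 4 treated libraries alone edgeR's adjusted p was 0.0975 for *Chn2*, 0.112 for *Vav2* and 0.0738 for *Ngef*, and with thinned counts it was 0.0630 for *Vav2* and 0.0548 for *Ngef*.

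Marker lists of cell types were summed in each library. The summed level of 8 luminal epithelial markers was 5865 to 5943 CPM in untreated control cells and 8019 to 10927 CPM after TGF-β, and 6623 to 6958 and 7931 to 10389 CPM in the KO-labelled libraries. Of the 5 luminal markers tested, edgeR called *Krt8* and *Krt18* higher in treated control cells, and they did not pass in the KO-labelled libraries (edgeR's adjusted p = 0.0792 and 0.229). Between treated genotypes 1 of the 5 was called, higher in the KO-labelled libraries, beside 15% of all tested genes. It was *Cdh1*, at 333 and 400 CPM against 237 and 242 CPM in treated control cells. The 6 basal or myoepithelial markers, of which only *Krt14* was tested and was called higher in both genotypes, summed to 4.88 to 5.78 CPM and 24.0 to 25.7 CPM in control cells, and to 3.08 to 3.19 and 24.4 to 42.2 CPM in the KO-labelled libraries, while *Krt5* and *Trp63* had at most 9 counts in any library. The 7 fibroblast or mesenchymal markers summed to at most 4.84 CPM, the 5 immune markers to at most 5.31 CPM and the 5 endothelial markers to at most 0.846 CPM in any library. Their part in the levels of the Eph and ephrin genes was not tested.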

How the data were processed

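RNA-seq counts of 8 NMuMG libraries were used. For each gene and library the authors deposited the number of counted reads, as raw counts in a single table, and 0 sample columns were left out. According to the methods of the study the reads were aligned with subjunc to mm10 and mm9 and duplicates were removed with samtools rmdup, which can lower the counts of abundant genes. The submitters' processing notes list HISAT2, limma and mm10. The sources also differ on the library kit and read layout. How reads were counted, and whether by strand, is not given in the sources used here. All 37310 gene identifiers matched GENCODE vM1 on NCBIM37, which gave symbols, positions and exon lengths.

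In R 4.3.3, edgeR 4.0.16 gave CPM with TMM factors and quasi-likelihood tests for the 13028 genes passing filterByExpr, with 1 model of the 4 groups over all libraries (4 residual degrees of freedom). The biological coefficient of variation was 0.180. P-values were adjusted by Benjamini-Hochberg over all tested genes, and the difference of responses was called by the adjusted p alone. SEs were derived from the log2 fold change and edgeR's F statistic, as the absolute change over the root of F. The script was tested on simulated data. A fold against libraries without counts was computed against 3 counts in the shallower library and is a lower bound that covers counting error only. Groups came from the sample labels.

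Genes named are the 10 members, the other family genes with enough counts, partners called after TGF-β (1 of which is not reported here), the genes with the highest correlation of log2 CPM (prior count 2) with *Ephb1* (5), *Epha2* (3) and *Efna1* (3), the targeted gene, *Snai1* and *Smad7* as checks and cell type markers. The partners called between treated genotypes are named too, after their values were seen. Members and lists were chosen with earlier results of these data known. Motifs were searched on both strands. Alternatives were DESeq2 1.42.0, RLE factors, all genes without a filter, a filter at a mean of 10 counts, a replicate block, thinned counts, fitting each comparison on its own 4 libraries, calls by the adjusted p alone and leaving out single libraries. A block with exchanged numbers was added after seeing the data.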

Additional observations from a re-analysis of the deposited data

How the results depend on the processing

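The number of Eph and ephrin genes called after TGF-β in control cells, 3, was 6 without the filter on low counts, 1 (*Ephb4*) when only the 4 libraries of the comparison were fitted and 0 to 5 with single libraries left out. In the KO-labelled libraries it was 3, 5 without the filter, and 0 to 4 with single libraries left out. The share of all genes called is not given for these fits, so nothing is read from the changes in number. Between genotypes the same threshold is only a description, since the family was chosen on *Ephb1*, and nothing is read from its counts, which were 1 untreated (0 to 1 with single libraries left out) and 3 treated (5 without the filter and 3 to 4 with single libraries left out). For the difference of responses it was 0, and 1 (*Efnb2*) without the filter. The cause of these changes was not tested, and fits with fewer libraries also have fewer degrees of freedom. The directions of TGF-β responses that turned were those of *Ephb1* in control cells (log2 fold change -0.44 to 0.69 with single libraries left out), of *Epha4* (-0.10 to 0.26) and *Efnb2* (-0.078 to 0.83) in the KO-labelled libraries, and of the difference of responses for *Epha2* (-0.036 to 1.27), *Ephb3* (-0.15 to 2.20) and *Efna1* (-0.18 to 0.41), none of which was called. Between genotypes the signs of *Epha2* (-0.04 to 0.17) and *Epha4* (-0.17 to 0.22) untreated and of *Efna1* (-0.53 to 0.07) treated turned as well, that of *Epha4* holding in 7 of 15 alternatives. Over all genes, the calls after TGF-β in control cells numbered 1194, and 2021 without the filter and 470 with the 4 libraries alone, and those in the KO-labelled libraries 889 and 1832 without the filter. Between genotypes they numbered 238 untreated, and 428 by DESeq2, 756 without the filter and 804 with the 4 libraries alone, and 1959 treated, and 410 with the 4 libraries alone. The difference of responses had 0, and 30 by DESeq2 and 211 without the filter.

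Same-numbered libraries share only a number. Their deviations from the group means correlated across genes at 0.30 between the control groups, -0.01 between the KO-labelled groups, 0.10 between the untreated and -0.47 between the treated genotypes. With the replicate number as a block, 1 gene (*Ephb4*) was called after TGF-β in control cells, where *Ephb3* (adjusted p = 0.0778 by edgeR) and *Efna1* (0.0601) were not, 2 in the KO-labelled libraries, where *Efna1* was not (0.0546), and 1, 3 and 0 in the other comparisons. *Efna3* in control cells (0.0612) and *Ephb6* between untreated genotypes (0.0562) were not called with the block either. Over all genes the block gave 150 calls between untreated genotypes. With the numbers of the treated KO-labelled libraries exchanged, 2809 genes were called between treated genotypes, against 1490 with the block as labelled, and 3 Eph and ephrin genes in both. Depth limits the rare members most, as 3 counts are 0.660 CPM in the shallowest library.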
